A study of Arabidopsis thaliana with 18 samples.

Results

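The hypocotyl and the apical hook of dark-grown Arabidopsis thaliana seedlings were compared by RNA sequencing in wild-type Col-0 (WT). The tested genes were those with at least 1 FPKM (fragments per kilobase of transcript, scaled to library depth) in 3 of the 6 WT hypocotyl and WT hook libraries. That rule kept 17760 of the 26073 genes listed in the files. WT hypocotyl had 3 libraries and WT hook had 3, and the series holds 18 libraries in all, with cotyledons and with the same organs of pifq. The pifq mutant carries mutations in PIF1, PIF3, PIF4 and PIF5, which encode transcription factors that repress light development in darkness. According to the labels, every seedling was 4 days old and had grown without light at 22 °C on MS medium containing 3% sucrose. The labels number the replicates but do not say whether they came from separate cultures, so p-values measure the spread between these libraries, which may be technical. Each library is bulk RNA of an organ, so fewer cells of a type and less RNA per cell cannot be told apart.

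An etiolated seedling pushes its shoot tip through soil by elongating the hypocotyl while the apical hook stays bent and shields the meristem. The hook bends because cells on its concave and convex sides grow at unequal rates, which depends on auxin, ethylene and gibberellin. The lower hypocotyl holds older cells with differentiated endodermis and xylem, whereas the hook sits directly below the meristem and cotyledons. Hypocotyl cells of Arabidopsis elongate with few divisions outside the stomatal lineage.

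Of the 17760 genes tested, 15362 reached 1 FPKM in all 6 libraries. Another 645 passed only through the 3 hypocotyl libraries and 305 only through the 3 hook libraries, so that these had to differ. The rule left out 8313 genes, of which 1500 were at 0 in all 6 libraries. The gene just inside the limit, AT2G40711, had 1.00018 FPKM in the library that decided it, and the gene just outside, FLA10, had 0.998785. The libraries rested on 13851955 to 18018643 reads or read pairs in WT hypocotyl and 15029737 to 17826902 in WT hook, as recovered from whole-read steps in the values. Over a length of 1 kb, a single read corresponded to between 0.0555 and 0.0722 FPKM in these 6 libraries.

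The organs separated along the first principal component, which held 86.3% of the variance. Pairwise correlations of log2(FPKM + 1) ran from 0.9720 to 0.9824 among WT hypocotyl libraries, from 0.9851 to 0.9874 among WT hook libraries and from 0.8167 to 0.8540 between the organs. WT hypocotyl replicate 2 stood apart on the second component (5.5% of the variance) at -31.6, against 19.8 and 9.5 for replicates 1 and 3. The same library held transcripts of embryo storage proteins. CRU1, a 12S globulin, had 0.0298, 44.1 and 0.0930 FPKM in WT hypocotyl replicates 1 to 3 and 14.2, 6.56 and 0.443 in WT hook replicates 1 to 3. OLEO2, an oil body protein, had 2.28, 48.0 and 3.56 FPKM in WT hypocotyl and 25.7, 19.3 and 4.97 in WT hook. Neither was called with all libraries (limma adjusted p = 0.748 and 0.547), and both were lower in hypocotyl without WT hypocotyl replicate 2 (log2 change -2.37 and -1.94, limma adjusted p = 0.0479 and 0.0245). Without WT hypocotyl replicate 2, the number of genes called was 4091 higher and 7298 lower in hypocotyl, against 4002 and 7328 with it. Chloroplast-encoded genes summed to 1951, 3433 and 2433 FPKM in WT hypocotyl and 7523, 9990 and 7951 in WT hook. Mitochondrion-encoded genes summed to 3977, 15436 and 8337 FPKM in WT hypocotyl and 4780, 14507 and 10016 in WT hook, with replicate 2 highest in both organs.

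Expression differed between the organs for most genes tested. With limma on log2(FPKM + 1) and a Benjamini-Hochberg adjusted p under 0.05, 4002 genes (22.5%) were higher in hypocotyl, 7328 (41.3%) were lower and 6430 were not called. The rises reached further than the falls: 2012 genes rose and 2117 fell by at least 2-fold, whereas 270 rose and 1, which is chloroplast-encoded, fell by at least 8-fold. The median log2 change of all genes was -0.24 as deposited and -0.02 with median-ratio scaling, which centres the typical gene. With that scaling 5367 genes (30.2%) were higher and 4881 (27.5%) lower, so that rises made up 52.37% of the calls, against 35.32% on the deposited scale. All 4002 rises and 4881 of the 7328 falls were called on both scales, and 0 genes were called in opposite directions. Changes below are log2 differences of FPKM + 1, WT hypocotyl minus WT hook, on the deposited scale, and adjusted p-values are from limma. Counts with median-ratio scaling stand beside each list for the WT organs. Those per list for the difference between pifq and WT are on the deposited scale only. Genes said to rise or fall between the WT organs were called on both scales unless named as an exception. The log2(FPKM + 1) scale understates changes of genes near 1 FPKM. Over all genes tested, every hypocotyl library lay above every hook library in 24.8% and below in 45.7%. These shares are the background where groups are said not to overlap.

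**Figure D1:**
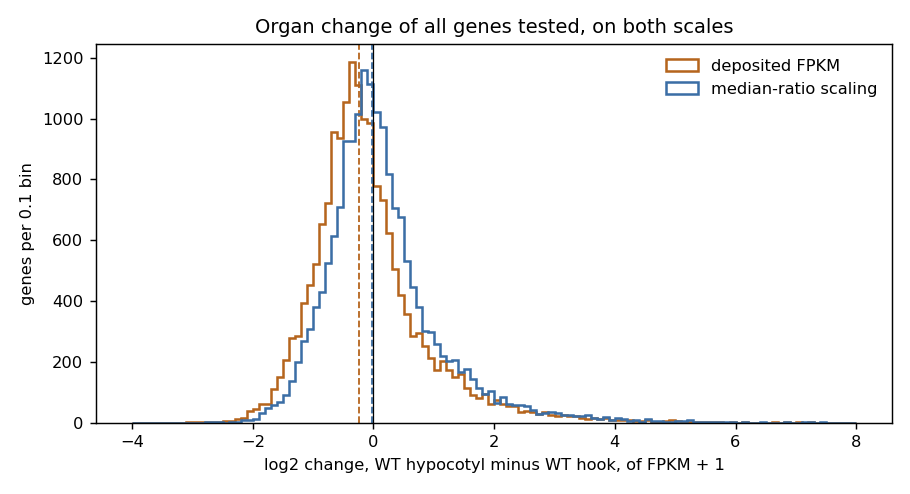
Histogram of the log2 change (WT hypocotyl minus WT hook, FPKM + 1) of the 17760 genes tested, in bins of 0.1, as deposited and with median-ratio scaling; dashed lines mark the medians, -0.24 and -0.02. The right tail reaches past 7 and the left tail stops near -3.

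The largest rises were of genes with low signal in hook. ATPMEPCRD, annotated as an invertase or pectin methylesterase inhibitor, had 1069, 753 and 1009.6 FPKM in WT hypocotyl and 10.08, 2.37 and 5.49 in WT hook (log2 change 7.23, SE 0.38, limma adjusted p = 4.54e-06). The peroxidase gene AT2G37130 had 3276, 3269 and 3395 FPKM in WT hypocotyl and 50.6, 12.4 and 15.0 in WT hook. AZI1, a lipid-transfer-like protein of defence priming, had 917, 1106 and 957 FPKM in WT hypocotyl and 11.9, 7.9996 and 4.29 in WT hook. The rule that named these 3 genes required groups that do not overlap. Their hook levels varied several-fold among replicates. MLP34 (7.02), the aspartyl protease AT5G10770 (6.86), the drought-repressed gene DR4 (6.64) and the papain-type protease AT4G11320 (6.17) followed in log2 change. CYP705A5, a cytochrome P450 of thalianol metabolism, had 259, 187 and 254 FPKM in WT hypocotyl and 5.58, 4.77 and 1.14 in WT hook. The arabinogalactan protein gene FLA13 changed by 5.70.

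The falls were smaller. GASA4, a gibberellin-responsive cysteine-rich peptide gene at chromosome 5, positions 4944816 to 4946299 (TAIR10.1), had 2357, 2022 and 2716 FPKM in WT hypocotyl and 11033, 11685 and 13883 in WT hook (log2 change -2.37, SE 0.19, limma adjusted p = 3.94e-05). COR15A, a cold-regulated chloroplast protein, had 5.50, 15.5 and 2.15 FPKM in WT hypocotyl and 37.3, 47.0 and 36.5 in WT hook (log2 change -2.56). PAR2, an atypical helix-loop-helix protein of shade responses, had 12.6, 12.3 and 20.9 FPKM in WT hypocotyl and 81.7, 78.2 and 94.4 in WT hook. ADF9, an actin-binding protein, had 13.3, 16.5 and 18.1 FPKM in WT hypocotyl and 75.1, 87.9 and 96.3 in WT hook. The rule that named these genes required groups that do not overlap, so the lack of overlap is no result. BBX32, a B-box protein, fell by 2.45 and the WNK-related gene AT1G60060 by 2.55 on the log2 scale.

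Members of 35 gene lists were then read by organ, against the background shares of 22.5% higher and 41.3% lower. The root, peroxidase and xylem lists had the highest medians, and the chlorophyll, light-harvesting and growth-related helix-loop-helix lists the lowest. Each count of 0 given for a list on the deposited scale was also 0 at an unadjusted p under 0.05, and with limma-voom on recovered reads where the list had any. In 13 lists some members, 25 in all, passed the filter through only 1 organ and so had to differ.

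**Figure D2:**
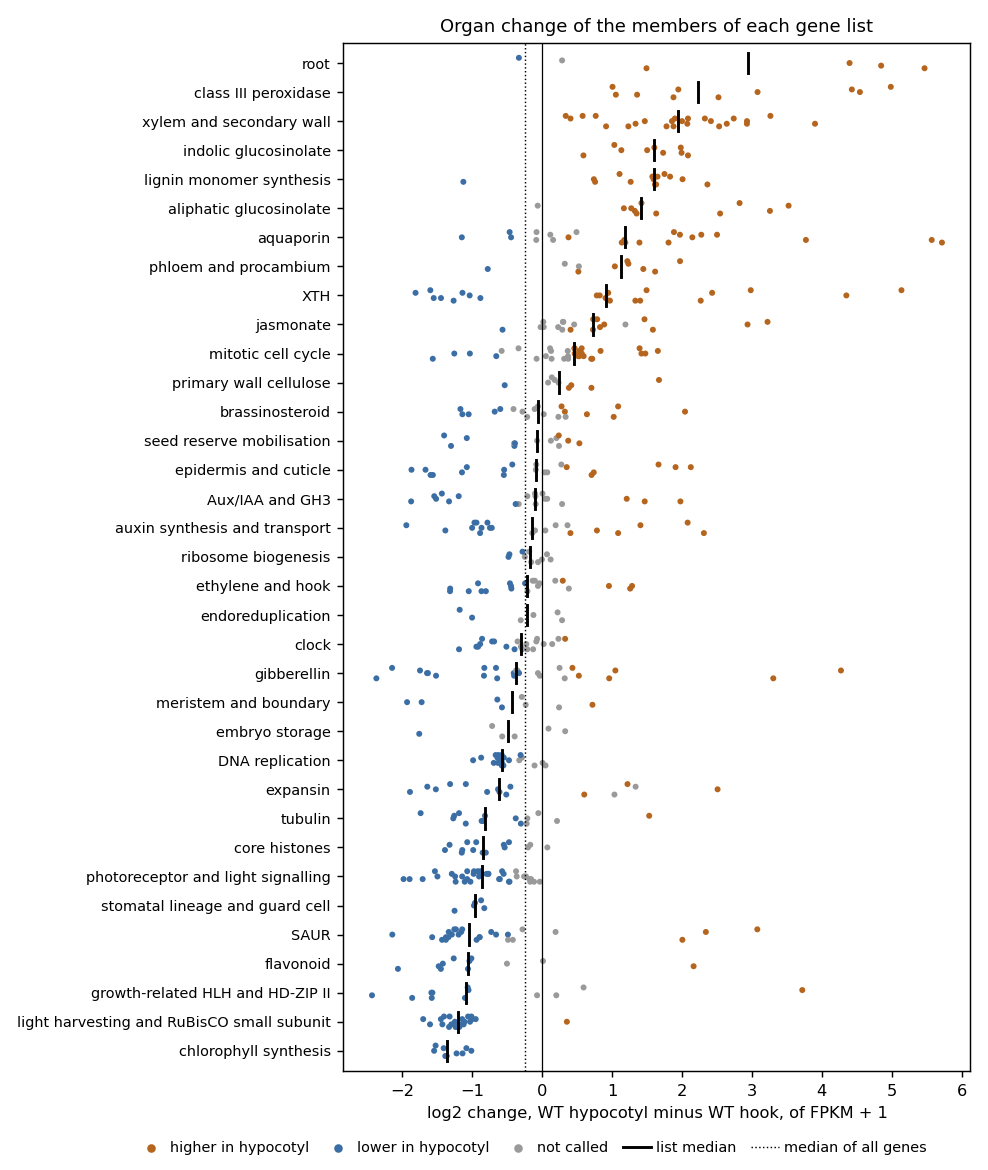
Log2 change (WT hypocotyl minus WT hook, FPKM + 1) of each tested member of the 35 gene lists, 1 point per gene, with colours for the limma call, a bar at each list's median and dotted line at the median of all genes (-0.24). Members of the xylem list all lie right of 0 and members of the chlorophyll list all lie left of it.

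Of the 6 root-list genes tested, 4 were higher in hypocotyl, among them genes of the Casparian strip, the diffusion barrier of the endodermis. CASP1, a membrane protein that scaffolds the Casparian strip (chromosome 2, positions 15159591 to 15160799), had 481, 329 and 463 FPKM in WT hypocotyl and 15.7, 10.4 and 3.46 in WT hook (log2 change 5.47, SE 0.43, limma adjusted p = 3.19e-05). CASP2 had 157, 92.3 and 153 FPKM in WT hypocotyl and 6.37, 4.88 and 1.19 in WT hook. MYB36, the transcription factor that switches on Casparian strip genes, had 10.3, 12.2 and 15.5 FPKM in WT hypocotyl and 2.39, 4.71 and 4.65 in WT hook. PHO1, which loads phosphate into the xylem, changed by 4.40. The groups did not overlap in any of these 4 genes, while SCR, a regulator of endodermal identity, had 22.7, 31.6 and 27.4 FPKM in WT hypocotyl and 20.03, 24.1 and 21.97 in WT hook and was not called (limma adjusted p = 0.0987); its limma adjusted p was 0.00968 with median-ratio scaling and 0.0248 without WT hypocotyl replicate 1. The root list held 15 genes, and those tested gave 4 higher, 1 lower (SHR) and 1 not called, or 5, 0 and 1 with median-ratio scaling; SHR was also not called without WT hook replicate 2 (limma adjusted p = 0.078). The root-tip and root-hair markers of that list were at or near 0: PLT1, PLT2, WOX5, RHD6, COBL9, RSL4 and NRT2.1 were below 1 FPKM in all 6 libraries, and WOX5 had 0.264, 0.618 and 0.2198 FPKM in WT hypocotyl and 0, 0.126 and 0 in WT hook. The iron transporter gene IRT1 reached 3.79 FPKM in WT hypocotyl replicate 2 and at most 0.532 in the other 5. The list summed to 739, 552 and 731 FPKM in WT hypocotyl and 71.7, 75.6 and 58.5 in WT hook.

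All 10 class III peroxidases tested were higher in hypocotyl on both scales (median log2 change 2.24, against -0.24 over all genes). Of 27 peroxidases written for the list, 12 matched the annotation by name, so these 10 do not stand for the whole family. These enzymes oxidise monolignols and cross-link cell walls. PER64, which acts at the Casparian strip, had 201, 154 and 198 FPKM in WT hypocotyl and 8.89, 7.78 and 4.60 in WT hook. PRX72, a peroxidase of lignification, had 273, 213 and 272 FPKM in WT hypocotyl and 10.7, 7.17 and 4.26 in WT hook. PRXCB changed by 4.43 (SE 0.23, limma adjusted p = 4.73e-06).

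All 24 xylem and secondary wall genes tested were higher in hypocotyl, on both scales, with a median log2 change of 1.95. Their sum was 813, 838 and 793 FPKM in WT hypocotyl and 184, 177 and 174 in WT hook. FRA8, a glycosyltransferase of xylan synthesis, had 29.9, 37.8 and 31.4 FPKM in WT hypocotyl and 1.35, 1.71 and 0.821 in WT hook (log2 change 3.90, SE 0.17, limma adjusted p = 2.40e-06). KNAT7, a homeodomain regulator of secondary walls, had 31.7, 21.7 and 31.1 FPKM in WT hypocotyl and 2.03, 2.06 and 1.90 in WT hook. LAC17, a laccase that polymerises lignin, had 37.1, 44.2 and 41.7 FPKM in WT hypocotyl and 4.54, 4.23 and 4.74 in WT hook. XCP1, a cysteine protease of dying xylem vessels, had 107, 97.6 and 111 FPKM in WT hypocotyl and 21.4, 17.8 and 21.4 in WT hook. Replicates of these genes were tight and the organs lay far apart. The master regulators were low in both organs, with 3.11 ± 1.03 FPKM of VND7 in WT hypocotyl and 1.15 ± 0.238 in WT hook, and 4.22 ± 0.899 FPKM of MYB46 in WT hypocotyl and 1.05 ± 0.215 in WT hook (SD, n = 3 each). IRX14 changed least, by 0.34, with limma adjusted p = 0.0526 without WT hook replicate 1 and 0.0537 without WT hook replicate 3.

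The tracheary element-regulating element, written TERE (searched on both strands), has been described upstream of xylem vessel genes. It occurred in the 250 bases before the gene start of 3 of the 24 xylem list members (12.5%), against 76 of 17590 tested genes with such a window (0.432%). The XCP1 stretch is shown because it holds the element and overlaps no other annotated gene; the element is in capitals, starts 75 bases before the gene start and overlaps no other motif searched. The sequence is RefSeq's TAIR10.1, 5′ to 3′ on the plus strand, chr4:16810352-16810471.
XCP1: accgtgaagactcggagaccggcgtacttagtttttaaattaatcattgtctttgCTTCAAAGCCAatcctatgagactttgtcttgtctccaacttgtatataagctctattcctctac

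Lignin monomer and phloem genes followed the same direction. Of 14 genes that make lignin monomers, 13 were higher and 1 lower on both scales. PAL4, which commits phenylalanine to this pathway, had 88.6, 80.4 and 79.7 FPKM in WT hypocotyl and 14.9, 16.0 and 15.0 in WT hook. 4CL2, a CoA ligase of the pathway, had 45.4, 46.5 and 48.0 FPKM in WT hypocotyl and 10.5, 10.9 and 11.1 in WT hook. FAH1, the hydroxylase that leads to syringyl lignin, was the exception with 1.003, 2.102 and 1.45 FPKM in WT hypocotyl and 5.69, 3.37 and 4.41 in WT hook. Of 10 phloem and procambium genes, 7 were higher, 1 lower and 2 not called, or 9, 1 and 0 with median-ratio scaling. SUC2, the sucrose transporter of companion cells, had 145, 138 and 112 FPKM in WT hypocotyl and 56.4, 44.2 and 42.3 in WT hook. SEOa, a structural protein of sieve elements, had 35.9, 43.7 and 30.7 FPKM in WT hypocotyl and 8.39, 9.44 and 7.82 in WT hook. CLE41, a peptide that restrains xylem differentiation, changed by -0.78.

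**Figure D3:**
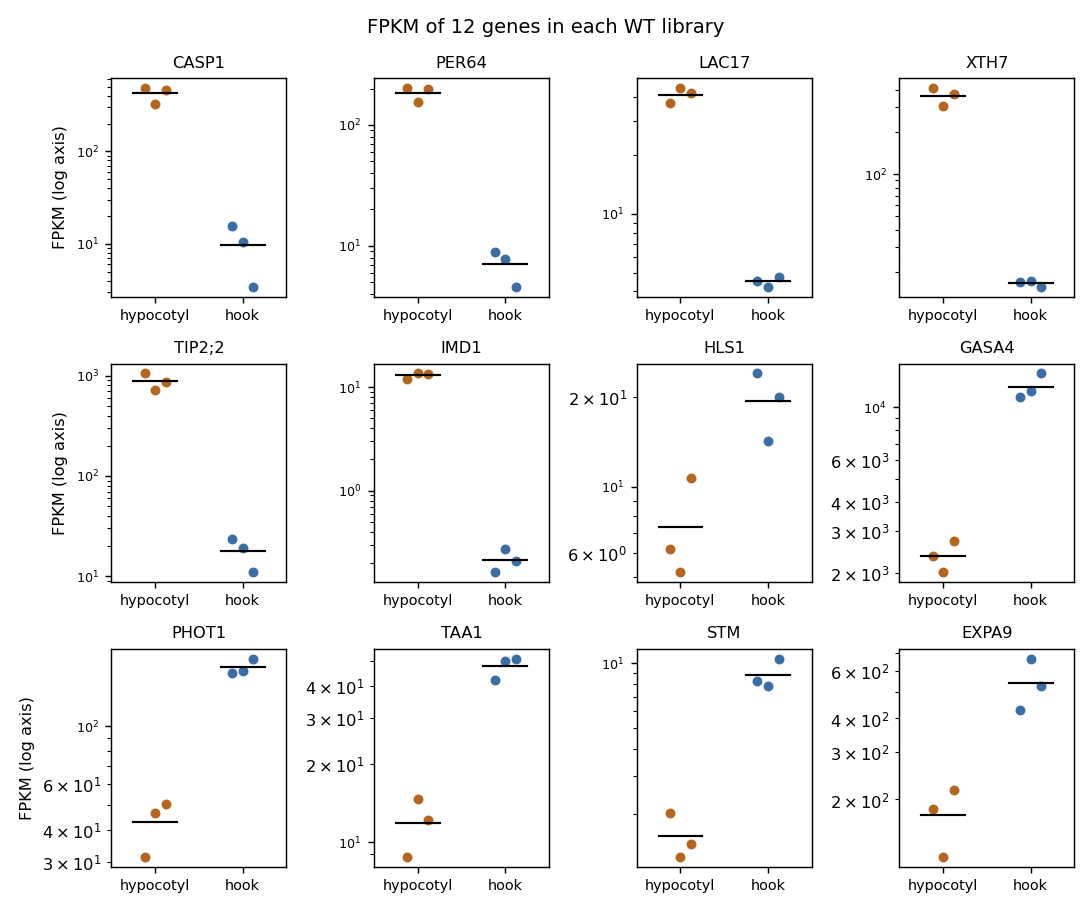
FPKM (log axes, 1 panel per gene) of 12 genes in the 3 WT hypocotyl and 3 WT hook libraries, with points for libraries and bars for means. CASP1, PER64, LAC17, XTH7, TIP2;2 and IMD1 lie higher in hypocotyl and HLS1, GASA4, PHOT1, TAA1, STM and EXPA9 lower, with no overlap. Over all genes tested, 24.8% lie higher and 45.7% lower without overlap.

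Aquaporins, the water channels of plasma membrane and tonoplast, were mostly higher in hypocotyl. Of 22 tested, 14 were higher, 3 lower and 5 not called, or 16, 1 and 5 with median-ratio scaling; the lower count was 1 without WT hook replicate 1 or 2 or WT hypocotyl replicate 1 or 3. TIP1;2, the most abundant transcript of WT hypocotyl, had 10356, 7839 and 9784 FPKM in WT hypocotyl and 3450.3, 3562 and 3570.4 in WT hook. TIP2;2 had 1049, 714 and 856 FPKM in WT hypocotyl and 23.6, 19.0 and 11.1 in WT hook (log2 change 5.57, SE 0.26, limma adjusted p = 2.86e-06). PIP2;4 at the plasma membrane had 1061, 534 and 886 FPKM in WT hypocotyl and 43.0, 66.6 and 65.4 in WT hook. TIP2;3 changed by 5.72, while NIP1;1 fell to 7.64, 7.71 and 7.28 FPKM in WT hypocotyl, against 16.3, 17.7 and 20.02 in WT hook.

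Enzymes that loosen walls split by family and by member. XTHs, which cut and rejoin xyloglucan, were higher for 13 and lower for 8 of 21 members, or 13 and 7 with median-ratio scaling, the exception being XTH15. XTH24 had 483, 383 and 458 FPKM in WT hypocotyl and 15.0, 13.3 and 7.55 in WT hook. XTH7 had 408, 304 and 375 FPKM in WT hypocotyl and 17.1, 17.2 and 15.7 in WT hook (log2 change 4.35, SE 0.12, limma adjusted p = 9.31e-07). In the other direction, XTH5 had 11.4, 8.34 and 13.4 FPKM in WT hypocotyl and 33.6, 41.6 and 47.4 in WT hook, and XTH8 changed by -1.55. XTH15 had 367, 143 and 263 FPKM in WT hypocotyl and 613, 412 and 476 in WT hook (limma adjusted p = 0.0210), and its p was 0.0693 with median-ratio scaling and 0.0725 without WT hook replicate 1; its change was -0.66 without WT hypocotyl replicate 2 and -1.04 with it.

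Expansins, which loosen walls without cutting polymers, leaned to the hook on the deposited scale. Of 15 tested, 3 were higher, 10 lower and 2 not called, against 5, 5 and 5 with median-ratio scaling, so the lean of the family depends on the scale. The higher count was also 5 without WT hook replicate 2 or without WT hypocotyl replicate 3. EXPA16 had 57.9, 55.5 and 80.5 FPKM in WT hypocotyl and 13.7, 11.3 and 7.12 in WT hook. EXPA9 had 185, 122 and 217 FPKM in WT hypocotyl and 429, 668 and 528 in WT hook. EXPA6 had 19.2, 27.4 and 26.9 FPKM in WT hypocotyl and 86.5, 92.9 and 98.3 in WT hook. These 3 genes kept their calls and directions on both scales.

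Primary wall cellulose genes moved little, except CESA2. CESA2, a cellulose synthase subunit, had 99.0, 109 and 133 FPKM in WT hypocotyl and 32.3, 34.2 and 37.7 in WT hook. CESA3, another subunit, had 263, 311 and 299 FPKM in WT hypocotyl and 252, 249 and 291 in WT hook and was not called (limma adjusted p = 0.311), although its limma adjusted p was 0.0187 with median-ratio scaling. Of 9 such genes 4 were higher and 1 (CSI1) lower, or 8 and 0 with median-ratio scaling, and the lower count was 0 without WT hook replicate 3. Tubulins, the subunits of the microtubules that guide cellulose deposition, were higher for 1 and lower for 10 of 15, or 1 and 8 with median-ratio scaling, and 2 were higher without WT hypocotyl replicate 2. TUB1 had 45.7, 58.5 and 59.9 FPKM in WT hypocotyl and 175, 162 and 216 in WT hook. TUA1 was the one that rose, with 22.8, 23.1 and 22.4 FPKM in WT hypocotyl and 8.18, 6.73 and 6.82 in WT hook. Near-identical tubulin copies share reads, so single members of this family are uncertain.

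Glucosinolate and jasmonate genes were mostly higher in hypocotyl. Glucosinolates are sulfur compounds of the mustard family that deter herbivores. Of 11 aliphatic glucosinolate genes tested, 10 were higher and 0 lower, and all 9 indolic ones were higher, on both scales. Of these, 6 aliphatic and 2 indolic genes passed the filter only through hypocotyl and so had to differ; of the others, 4 of 5 aliphatic and 7 of 7 indolic genes were higher. IMD1, which elongates methionine side chains, had 11.9, 13.5 and 13.5 FPKM in WT hypocotyl and 0.164, 0.273 and 0.207 in WT hook. MAM3, the first enzyme of that elongation, had 5.25, 8.013 and 5.75 FPKM in WT hypocotyl and 0, 0.0364 and 0.0322 in WT hook. In the hook these genes were close to the level of a few reads. CYP79B3, which converts tryptophan for indolic glucosinolates, had 79.8, 53.3 and 94.6 FPKM in WT hypocotyl and 17.4, 18.1 and 14.6 in WT hook. Jasmonate genes were higher for 11 and lower for 1 of 21, or 12 and 0 with median-ratio scaling. Of these, 2 (VSP1 and VSP2) passed the filter only through hypocotyl and so had to differ, and of the other 19, 9 were higher and 1 lower. VSP1, a storage protein induced by jasmonate, had 8.83, 9.87 and 10.2 FPKM in WT hypocotyl and 0.126, 0.298 and 0 in WT hook, and VSP2 changed by 2.94.

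Among ethylene and hook genes, HLS1 was higher in the hook. HLS1 encodes an acetyltransferase-like protein without which no hook forms, and lies at chromosome 4, positions 17658594 to 17660878. It had 6.20, 5.20 and 10.7 FPKM in WT hypocotyl and 24.0, 14.2 and 20.08 in WT hook (log2 change -1.31, SE 0.26, limma adjusted p = 0.00291). Its mean in WT cotyledon was 35.5 FPKM, so the hook was not its highest organ. The ACC oxidases, which make ethylene, divided: ACO1 had 4.45, 3.86 and 4.78 FPKM in WT hypocotyl and 11.4, 12.6 and 12.9 in WT hook, whereas ACO4 had 157, 119 and 121 FPKM in WT hypocotyl and 53.7, 59.7 and 49.7 in WT hook. EIN3, the main transcription factor of the ethylene response, had 70.6, 81.1 and 76.9 FPKM in WT hypocotyl and 88.0, 69.5 and 78.0 in WT hook and was not called (limma adjusted p = 0.782). WAG2, a kinase that acts on auxin carriers and on hook opening, rose to 73.5, 56.4 and 61.7 FPKM in WT hypocotyl, against 22.3, 40.8 and 36.6 in WT hook. Over the list, 4 of 21 were higher and 10 lower, or 6 and 6 with median-ratio scaling. As deposited, these shares were not far from the background of 22.5% and 41.3%.

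Auxin synthesis genes divided between the organs. TAA1, the aminotransferase that starts the main route from tryptophan, had 8.78, 14.7 and 12.1 FPKM in WT hypocotyl and 42.3, 50.0 and 51.0 in WT hook (log2 change -1.94, SE 0.18, limma adjusted p = 6.16e-05). Among the flavin monooxygenases of the next step, YUC5 had 4.22, 3.53 and 4.37 FPKM in WT hypocotyl and 0.156, 0.148 and 0.262 in WT hook. YUC9 had 6.63, 3.41 and 4.42 FPKM in WT hypocotyl and 0.340, 0 and 0.107 in WT hook. YUC3 went the other way, with 1.72, 1.71 and 1.11 FPKM in WT hypocotyl and 5.03, 5.81 and 5.72 in WT hook. The efflux carrier PIN3 had 53.2, 80.5 and 70.9 FPKM in WT hypocotyl and 117, 133 and 150.3 in WT hook, and PIN4 had 33.2, 39.0 and 31.1 FPKM in WT hypocotyl and 62.0, 68.7 and 79.1 in WT hook. Of 21 synthesis and transport genes 6 were higher and 10 lower, or 8 and 10 with median-ratio scaling. On the deposited scale these shares were not far above the background of 22.5% and 41.3%. Through hypocotyl only, 3 of the 21 passed the filter, YUC5 and YUC9 among them, and 1 passed only through hook, so that these had to differ. Of the other 17, 3 were higher and 9 lower.

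SAURs were mostly lower in hypocotyl. SAURs, short-lived proteins that promote cell expansion, were higher for 3 and lower for 19 of 26, or 3 and 16 with median-ratio scaling. Of the 26, 1 passed the filter only through hypocotyl and so had to differ, and of the other 25, 2 were higher and 19 lower. The median log2 change of the list was -1.04, against -0.24 over all genes. SAUR17 had 6.03, 3.36 and 13.2 FPKM in WT hypocotyl and 42.4, 26.0 and 30.8 in WT hook. SAUR14 had 5.53, 6.95 and 8.24 FPKM in WT hypocotyl and 24.2, 22.8 and 20.06 in WT hook. SAUR50 had 13.3, 9.86 and 15.9 FPKM in WT hypocotyl and 23.1, 19.7 and 22.9 in WT hook. SAUR32 stood out with 36.0, 35.9 and 30.1 FPKM in WT hypocotyl and 4.26, 3.42 and 2.04 in WT hook. SAUR19 to SAUR24 are near-identical copies whose reads may be split or shared.

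Of 19 Aux/IAA repressors and GH3 auxin-conjugating enzymes, 3 were higher and 7 lower, or 3 and 6 with median-ratio scaling. Neither share was far from the background of 22.5% and 41.3% on the deposited scale. IAA17 had 651, 313 and 549 FPKM in WT hypocotyl and 143, 194 and 188 in WT hook. IAA4 had 39.7, 33.5 and 49.3 FPKM in WT hypocotyl and 115, 118 and 119 in WT hook, and GH3.3 had 11.4, 13.4 and 7.40 in WT hypocotyl and 1.91, 2.45 and 1.45 in WT hook. IAA19 had 50.2, 18.4 and 61.0 FPKM in WT hypocotyl and 43.4, 55.7 and 48.2 in WT hook. The IAA19 groups overlapped and the gene was not called (log2 change -0.33, limma adjusted p = 0.464); the change was 0.18 without WT hypocotyl replicate 2, the lowest library.

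Gibberellin genes moved in both directions. The inactivating 2-oxidases divided, since GA2OX7 had 12.1, 22.7 and 22.2 FPKM in WT hypocotyl and 0.837, 0.552 and 1.61 in WT hook, whereas GA2OX1 had 4.15, 5.40 and 1.90 FPKM in WT hypocotyl and 22.1, 16.0 and 20.01 in WT hook. GA3OX1, which makes active gibberellin, had 10.2, 19.4 and 19.1 FPKM in WT hypocotyl and 37.8, 52.9 and 66.8 in WT hook. The receptor gene GID1C had 29.9, 25.0 and 27.0 FPKM in WT hypocotyl and 12.96, 13.5 and 11.5 in WT hook. GASA1, a relative of GASA4, changed the opposite way with 762, 468 and 648 FPKM in WT hypocotyl and 31.6, 46.3 and 19.8 in WT hook. Of 25 genes 6 were higher and 13 lower, or 7 and 9 with median-ratio scaling. As deposited, the share higher was near the background of 22.5% and the share lower somewhat above that of 41.3%.

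Brassinosteroid genes were higher for 6 and lower for 5 of 19, or 8 and 4 with median-ratio scaling. As deposited, the share higher was somewhat above the background of 22.5% and the share lower below that of 41.3%. The biosynthetic P450 gene ROT3 had 64.6, 64.0 and 72.7 FPKM in WT hypocotyl and 16.7, 14.9 and 14.9 in WT hook. BIM1, a transcription factor of the response, had 31.4, 40.7 and 32.4 FPKM in WT hypocotyl and 72.8, 82.6 and 77.5 in WT hook. Helix-loop-helix and HD-ZIP II growth regulators were higher for 1 and lower for 8 of 12, or 2 and 7 with median-ratio scaling or without WT hypocotyl replicate 2. IBH1, which restrains cell elongation, had 59.6, 36.7 and 57.1 FPKM in WT hypocotyl and 3.08, 3.37 and 2.25 in WT hook. KDR, a member of the PRE group that counteracts such inhibitors, had 38.4, 25.6 and 56.9 FPKM in WT hypocotyl and 117, 167 and 146 in WT hook. The inhibitor IBH1 and the antagonist KDR thus lay on opposite sides, and in neither did the organs overlap.

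No light signalling gene was higher in hypocotyl: 0 of 37 photoreceptor and light signalling genes rose and 28 fell, or 0 and 23 with median-ratio scaling. The list's median log2 change was -0.87, against -0.24 over all genes. PHOT1, the blue light receptor of phototropism, had 31.5, 46.2 and 50.4 FPKM in WT hypocotyl and 161, 163 and 182 in WT hook (log2 change -1.98, SE 0.17, limma adjusted p = 4.85e-05). NPH3, its signalling partner, had 19.3, 28.4 and 26.0 FPKM in WT hypocotyl and 72.5, 80.0 and 93.3 in WT hook. PHYA, the far-red receptor, had 76.0, 85.3 and 85.4 FPKM in WT hypocotyl and 181, 149.8 and 157 in WT hook. HY5, which promotes light development, had 60.4, 47.4 and 41.5 FPKM in WT hypocotyl and 106, 105 and 118 in WT hook. All 4 PIF genes mutated in pifq were lower in hypocotyl too. PIF3, the most abundant, had 59.2, 56.2 and 40.1 FPKM in WT hypocotyl and 90.8, 84.3 and 87.9 in WT hook. PIF1 had 4.95, 9.98 and 10.3 FPKM in WT hypocotyl and 19.3, 21.2 and 20.5 in WT hook, PIF4 changed by -1.11 and PIF5 by -0.90. PIF7 stayed below 1 FPKM in all 6 libraries and was not tested.

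Plastid genes were lower in hypocotyl. Of 24 light-harvesting and RuBisCO small subunit genes, 1 (LHCB4.3) was higher and 23 lower on both scales, and LHCB4.3 was not called without WT hook replicate 3 (limma adjusted p = 0.0504). LHCB3 had 95.5, 146 and 125 FPKM in WT hypocotyl and 406, 333 and 265 in WT hook. All 9 chlorophyll synthesis genes tested were lower on both scales. CHLH, a magnesium chelatase subunit, had 22.5, 57.7 and 32.8 FPKM in WT hypocotyl and 128, 94.2 and 93.3 in WT hook. Of 110 chloroplast-encoded genes, 0 were higher and 83 lower, or 0 and 68 with median-ratio scaling. Near-identical LHCB1, LHCB2 and RBCS copies share reads and are uncertain one by one.

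Flavonoid genes were higher for 1 and lower for 8 of 11, or 1 and 7 with median-ratio scaling. PAP1, a MYB activator of anthocyanin synthesis, had 2.85, 7.42 and 5.63 FPKM in WT hypocotyl and 21.7, 28.2 and 22.6 in WT hook. MYBL2, a repressor of the same pathway, was the one that rose, with 19.1, 25.4 and 21.0 FPKM in WT hypocotyl and 3.74, 4.91 and 3.59 in WT hook. Clock genes, from plants harvested in constant darkness, were higher for 1 and lower for 9 of 21, or 4 and 6 with median-ratio scaling. As deposited, the share lower was near the background of 41.3% and the share higher below that of 22.5%. The 1 higher gene, LKP2, was not called without WT hook replicate 2 or 3 or WT hypocotyl replicate 1 or 2 (limma adjusted p = 0.071 to 0.11). ELF3, of the evening complex, had 15.1, 19.8 and 19.6 FPKM in WT hypocotyl and 46.3, 39.8 and 41.3 in WT hook.

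Of 8 meristem and boundary genes tested, 4 were lower in hypocotyl, close to the background, and STM and ATH1 were among them. STM, a homeodomain protein that maintains the meristem, had 2.02, 1.27 and 1.46 FPKM in WT hypocotyl and 8.23, 7.81 and 10.5 in WT hook (log2 change -1.93, SE 0.16, limma adjusted p = 4.49e-05). ATH1 had 1.66, 2.52 and 1.79 FPKM in WT hypocotyl and 8.39, 9.44 and 8.57 in WT hook. KNAT1, expressed in stems below the meristem, had 37.6, 52.7 and 53.7 FPKM in WT hypocotyl and 49.8, 56.9 and 61.8 in WT hook and was not called (limma adjusted p = 0.212). WUS, of the meristem centre, was at or near 0 in every library, with at most 0.12 FPKM. The list held 16 genes, and those tested gave 1 higher (LAS) and 4 lower, or 2 and 3 with median-ratio scaling. LAS passed the filter only through hypocotyl and so had to differ, and of the other 7 genes 0 were higher and 4 lower. The list summed to 76.0, 89.8 and 92.8 FPKM in WT hypocotyl and 111, 122 and 130.2 in WT hook. All 5 stomatal genes tested, of 12 in the list, were lower on both scales. Of these, 2 passed the filter only through hook and so had to differ, and the other 3 were lower too. TMM, a receptor-like protein of stomatal patterning, had 2.49, 1.89 and 3.13 FPKM in WT hypocotyl and 8.06, 5.89 and 4.06 in WT hook. The stomatal list summed to 7.50, 6.16 and 10.2 FPKM in WT hypocotyl and 25.6, 22.1 and 18.1 in WT hook. The part of meristem or stomatal cells in other results was not tested.

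Of 20 epidermal genes, 6 were higher and 9 lower, or 7 and 7 with median-ratio scaling. As deposited, neither share was far above the background of 22.5% and 41.3%. CER6, which elongates the fatty acids of cuticular wax, had 1086, 1036 and 1157 FPKM in WT hypocotyl and 291, 281 and 298 in WT hook. PDF1, a protodermal marker, had 216, 466 and 303 FPKM in WT hypocotyl and 954, 953 and 1083 in WT hook. BDG1, which shapes the cuticle, changed by -1.87. Among seed reserve mobilisation genes, 3 of 13 were higher and 5 lower, or 6 and 3 with median-ratio scaling. As deposited, both shares were near the background of 22.5% and 41.3%. The lower count was 3 without WT hook replicate 1 or 2 or WT hypocotyl replicate 1 or 3. ICL, of the glyoxylate cycle, had 592, 1089 and 652 FPKM in WT hypocotyl and 1980.5, 2375 and 1649 in WT hook.

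Cell cycle genes divided by list. Of 31 mitotic genes tested, 16 were higher in hypocotyl, 4 lower and 11 not called, or 19, 4 and 8 with median-ratio scaling. Of 20 DNA replication genes 0 were higher and 15 lower, or 0 and 9, and of 15 core histone genes 0 were higher and 12 lower, or 0 and 11. In the mitotic list 1 gene passed the filter only through hypocotyl and so had to differ, and of the other 30, 15 were higher and 4 lower. In the replication list 2 passed only through hook, and of the other 18, 13 were lower. The median log2 changes were 0.46 for mitotic, -0.58 for replication and -0.85 for histone genes, against -0.24 over all genes. MAD2, a spindle checkpoint protein, had 24.9, 17.98 and 24.0 FPKM in WT hypocotyl and 6.30, 6.27 and 6.39 in WT hook (log2 change 1.66, SE 0.14, limma adjusted p = 4.08e-05). CDKB2;1, a kinase of mitotic entry, had 27.8, 29.3 and 27.8 FPKM in WT hypocotyl and 10.5, 9.30 and 10.7 in WT hook. The mitotic cyclin CYCB1;4 had 14.8, 10.09 and 16.4 FPKM in WT hypocotyl and 4.79, 4.08 and 4.39 in WT hook. CYCB1;1, another mitotic cyclin, had 1.63, 1.95 and 1.84 FPKM in WT hypocotyl and 2.13, 1.43 and 1.59 in WT hook and was not called (limma adjusted p = 0.759). The mitotic list also holds D-type and A-type cyclins, so it is not of mitosis alone, and its largest falls were CYCD3;2, CYCA2;3 and CYCA3;2. The D-type cyclin CYCD3;2, which drives entry into division, had 12.1, 15.8 and 16.2 FPKM in WT hypocotyl and 54.6, 42.8 and 39.1 in WT hook. FAS1, a chromatin assembly subunit that follows replication forks, had 1.07, 1.14 and 1.28 FPKM in WT hypocotyl and 2.88, 3.06 and 3.96 in WT hook. The histone H2B gene HTB2 had 23.4, 29.4 and 25.8 FPKM in WT hypocotyl and 76.8, 68.0 and 65.5 in WT hook. Most members were below 10 FPKM, and with a filter at 5 FPKM in 3 libraries 6 mitotic genes remained called as higher and 5 replication genes as lower.

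Mitotic and replication genes carry different known promoter elements. The MSA element (CNAACGG, both strands) is bound by MYB3R factors around mitosis, and the E2F site (TTTCCCGC, both strands) by E2F factors at S phase. MSA letters lay in the 250 bases before the start of 9 of 31 mitotic genes (29.0%), against 887 of 17590 tested genes (5.04%). E2F letters lay in 6 of 20 replication genes (30%), against 101 of 17590 (0.574%). A match is a description of letters, not of binding. Of the 9 mitotic genes, 5 were higher in hypocotyl and 4 were not called, and all 6 replication genes were lower, of which ORC2 passed the filter only through hook. The 4 stretches below were chosen from the called genes after their values were seen, as examples of each element, which is in capitals. No other annotated gene overlaps the stretches, and no other searched motif overlaps the capitals. Letters of other searched motifs can lie elsewhere in a stretch, as CACATG does in CYCB2;2 and GGCCCA in MCM6. They are RefSeq's TAIR10.1, 5′ to 3′ on the strand of the gene: CYCB1;3 is chr3:3627275-3627394 (minus), CYCB2;2 chr4:16901367-16901486 (plus), FAS1 chr1:24324095-24324214 (minus) and MCM6 chr5:18010668-18010787 (minus).
CYCB1;3: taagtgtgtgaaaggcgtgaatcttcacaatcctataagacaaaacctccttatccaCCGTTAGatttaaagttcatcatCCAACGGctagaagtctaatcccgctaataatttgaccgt
CYCB2;2: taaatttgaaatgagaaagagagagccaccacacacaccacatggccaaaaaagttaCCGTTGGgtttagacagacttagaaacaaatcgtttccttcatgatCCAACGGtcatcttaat
FAS1: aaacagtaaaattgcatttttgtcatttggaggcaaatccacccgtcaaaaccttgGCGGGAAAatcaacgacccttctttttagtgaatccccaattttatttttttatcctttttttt
MCM6: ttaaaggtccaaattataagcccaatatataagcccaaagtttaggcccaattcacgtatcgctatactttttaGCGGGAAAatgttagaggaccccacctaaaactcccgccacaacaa
CYCB1;3, with MSA at 64 and 41 bases before the gene start, had 5.43, 6.02 and 6.04 FPKM in WT hypocotyl and 1.83, 1.25 and 1.32 in WT hook. CYCB2;2, with MSA at 172 and 126 bases, had 2.90, 3.90 and 4.08 FPKM in WT hypocotyl and 1.84, 1.72 and 1.83 in WT hook. MCM6, a subunit of the replicative helicase with its E2F site at 46 bases, had 1.01, 1.04 and 1.13 FPKM in WT hypocotyl and 2.19, 1.505 and 1.92 in WT hook and was not called with median-ratio scaling (limma adjusted p = 0.078) or without WT hook replicate 1 (limma adjusted p = 0.0696) or 3 (limma adjusted p = 0.0568).

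The organ change was also set against that in pifq, over 12 libraries. As a check of the genotype labels, PIF3 had 3.13, 4.15 and 4.46 FPKM in pifq hypocotyl and 2.18, 2.03 and 1.80 in pifq hook, against 59.2, 56.2 and 40.1 in WT hypocotyl and 90.8, 84.3 and 87.9 in WT hook. PIF5 had 3.81, 4.33 and 5.22 FPKM in pifq hypocotyl and 3.93, 4.37 and 3.25 in pifq hook, against 6.65, 9.84 and 7.88 in WT hypocotyl and 15.5, 16.1 and 16.1 in WT hook. PIF4 had 17.0, 17.8 and 22.0 FPKM in pifq hypocotyl and 13.9, 18.7 and 18.5 in pifq hook, against 4.51, 7.95 and 6.45 in WT hypocotyl and 13.8, 14.6 and 15.0 in WT hook. PIF1 had 18.3, 16.1 and 17.2 FPKM in pifq hypocotyl and 11.8, 15.4 and 9.19 in pifq hook, against 4.95, 9.98 and 10.3 in WT hypocotyl and 19.3, 21.2 and 20.5 in WT hook. Every pifq hypocotyl library thus lay above every WT hypocotyl library in both genes, and in hook PIF4 averaged no lower in pifq while PIF1 was lower there. The sources used here do not say which part of each gene its mutation removes. The difference of the organ change, pifq minus WT, was called for 23.8% of genes: 2593 (14.6%) higher and 1625 (9.15%) lower. Chloroplast transcripts also differed between the genotypes in hook, where chloroplast-encoded genes made up 0.0769% to 0.109% of FPKM in pifq and 1.27% to 1.68% in WT. In hypocotyl the genotypes overlapped, at 0.499%, 0.761% and 0.0565% in pifq replicates 1 to 3 and 0.332%, 0.608% and 0.417% in WT. The part of organelle transcripts in the differences was not tested.

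The mitotic list held 26 called differences among 31 genes, 1 higher and 25 lower, against a background of 23.8%. In pifq all 31 lay below 0, with a median log2 change of -1.08, against 0.46 in WT. MAD2 averaged 22.9 ± 2.86 FPKM in pifq hypocotyl and 35.9 ± 3.35 in pifq hook, against 22.3 ± 3.75 in WT hypocotyl and 6.32 ± 0.0623 in WT hook (SD, n = 3 each). CDKB2;1 averaged 32.4 ± 1.03 FPKM in pifq hypocotyl and 61.2 ± 6.40 in pifq hook, against 28.3 ± 0.863 in WT hypocotyl and 10.2 ± 0.766 in WT hook. In both genes the pifq hooks lay several-fold above the WT hooks, while the hypocotyl means of the genotypes were close. DNA replication genes had 2 called differences of 20, and their median was -0.80 in pifq and -0.58 in WT.

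**Figure D4:**
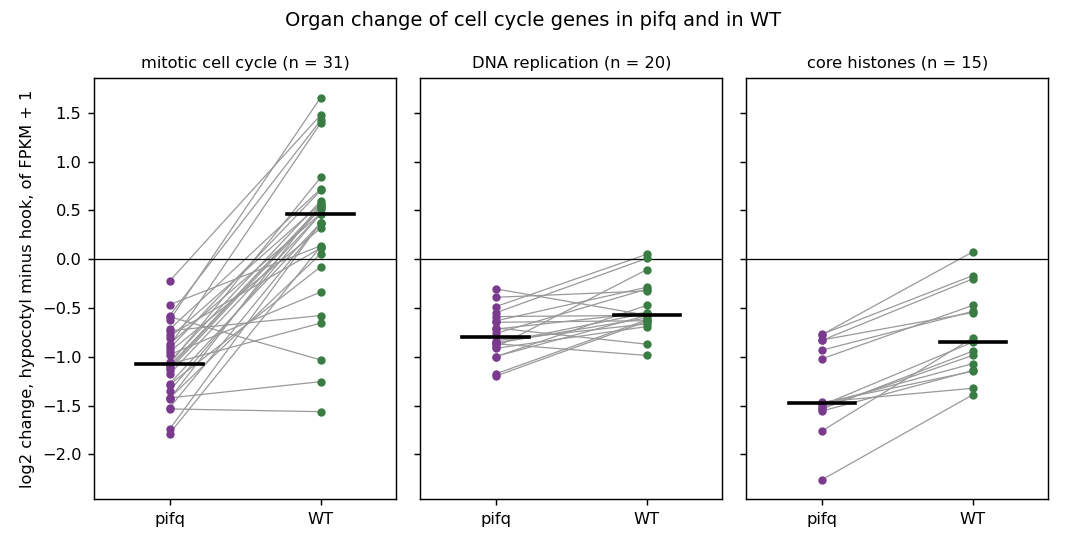
Log2 change (hypocotyl minus hook, FPKM + 1) of mitotic (n = 31), DNA replication (n = 20) and core histone (n = 15) genes in pifq (left in each panel) and WT (right), with a line per gene and bars at medians. Mitotic medians are -1.08 in pifq and 0.46 in WT, while replication medians are -0.80 and -0.58.

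Of the 23 lists with a median below 0 in WT, 13 had a median above 0 in pifq, where the median of all genes was -0.10, against -0.24 in WT. Only 15 of these lists were also below 0 in WT with median-ratio scaling, and 7 of those 15 were above 0 in pifq on the deposited scale. SAURs had a median log2 change of 0.91 in pifq and -1.04 in WT, with 17 called differences higher and 2 lower of 26. Tubulins had a median of 0.37 in pifq and -0.82 in WT, with 13 of 15 called higher. Light signalling genes had a median of 0.0013 in pifq and -0.87 in WT, with 19 of 37 called higher. PHOT1 averaged 131 ± 24.3 FPKM in pifq hypocotyl and 123 ± 15.6 in pifq hook, against 42.7 ± 9.95 in WT hypocotyl and 168 ± 11.5 in WT hook (SD, n = 3 each). The xylem list kept its direction, with 23 of 24 above 0 in pifq and a median of 1.31, against 1.95 in WT, and 16 of 24 differences were called lower. CASP1 averaged 163 ± 11.1 FPKM in pifq hypocotyl and 8.30 ± 13.5 in pifq hook. Its organ change differed by -0.01 from that in WT (SE 1.26, limma adjusted p = 0.994). With an SE this large, the test cannot show whether the CASP1 change is equal in both genotypes. The SD in pifq hook also exceeded the mean for CASP2, PER64, PRX72 and AT2G37130, among others. The source of this spread between pifq hook libraries was not tested. AT2G34700, a gene of the extensin family, averaged 2.87 ± 1.22 FPKM in pifq hypocotyl and 3.02 ± 1.31 in pifq hook, against 182 ± 38.5 in WT hypocotyl and 2.65 ± 1.03 in WT hook. CLE5, a signalling peptide gene, averaged 6.94 ± 7.14 FPKM in pifq hypocotyl and 0.0580 ± 0.1005 in pifq hook, against 18.1 ± 1.01 in WT hypocotyl and 47.7 ± 13.5 in WT hook. XTH7 averaged 129 ± 6.85 FPKM in pifq hypocotyl and 97.3 ± 10.5 in pifq hook, and its organ change differed by -3.95 from that in WT (limma adjusted p = 6.89e-07).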

How the data were processed

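The authors deposited 1 file per library with 1 FPKM value for each of 26073 genes. No header states the unit, which was inferred from how the values step with gene length. HISAT2, DESeq2 and TAIR10 are named, without their roles, per the submitters' processing notes, and the counter and annotation are not given in the sources used here. Per the labels' protocols, extraction used Trizol and DNase I, and the NEBNext Ultra library kit keeps no strand. Reads of overlapping antisense genes and of near-identical copies therefore cannot be separated. Multiplied by exon length, 99.43% to 99.49% of values below 100 reads were whole within 0.05 reads, which gave each library's depth. Names and coordinates come from RefSeq's TAIR10.1, matched by locus tag for 25788 genes.

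Genes with at least 1 FPKM in 3 of the 6 WT libraries were tested with limma 3.58.1 in R 4.3.3, with a trend, on log2(FPKM + 1), as 2 group means without a block. The genotype difference used 12 libraries and 4 group means, (pifq hypocotyl minus pifq hook) minus (WT hypocotyl minus WT hook). Calls used an adjusted p (Benjamini-Hochberg, over the 17760 genes) under 0.05. The fit was tested on simulated data with 200 changed genes among those tested. In the real data 11330 genes were called, so the simulation does not measure the error rate here. The labels do not say that replicate numbers pair the libraries, so the block is an alternative only. Deviations of same-numbered hypocotyl and hook libraries did correlate more than those of other numbers. Other alternatives were a pseudocount of 0.1, no filter, a filter at 5 FPKM, median-ratio scaling, removal of organelle genes, limma-voom on recovered reads, all 18 libraries in 1 fit, no variance trend and each library left out.

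The members and the gene lists were chosen with earlier results of these data known. Named genes follow a rule on the largest changes that do not overlap, up to 3 rises and 3 falls per list, 13 fixed genes and the 6 largest genotype differences each way. It named 187 genes, of which the text gives a part, and 22 others, among them XCP1, LAC17, MYB36, CDKB2;1 and CRU1, were named after their values were seen. Motifs were searched in the 250 bases before each annotated gene start. List members that the files or annotation did not match were not analysed here. Matching by name kept 12 of 27 peroxidases, 15 of 22 core histones and 10 of 14 ribosome biogenesis genes.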

Additional observations from a re-analysis of the deposited data

Results flagged for a closer look

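The organ change, hypocotyl minus hook, differed between pifq and WT for 2593 genes in the positive and 1625 in the negative direction (limma interaction, Benjamini-Hochberg adjusted p under 0.05, 23.8% of the 17760 tested). Genes named above whose change differed on the deposited scale are given with the log2 change in pifq minus that in WT. Not all hold on both scales: GASA4, for example, was not called for this difference with median-ratio scaling (limma adjusted p = 0.0622). A positive value means that the gene lay further toward the hypocotyl in pifq than in WT. Among the largest rises and falls, it was -4.87 for AZI1, -3.91 for AT5G10770, -3.62 for AT4G11320, -1.81 for FLA13, 2.35 for AT1G60060, 1.70 for BBX32, 1.24 for PAR2, 2.50 for ADF9 and 0.70 for GASA4. Among endodermal, peroxidase and vascular genes, it was 1.31 for MYB36, 0.82 for SHR, -1.59 for PRXCB, -1.52 for FRA8, -0.87 for LAC17, -0.90 for XCP1, -0.95 for MYB46, -0.96 for PAL4 and -0.69 for SEOa. Among wall-loosening enzymes, it was -3.94 for XTH7, 2.46 for XTH8, 1.62 for XTH5, 2.93 for XTH15, -3.89 for EXPA16, 2.46 for EXPA9 and 0.88 for EXPA6. Among cellulose synthase and tubulin genes, it was -0.91 for CESA2, 0.77 for CESA3, 1.13 for CSI1 and 1.81 for TUB1. Among ethylene and kinase genes of the hook, it was -1.90 for ACO4, 1.33 for ACO1 and 1.42 for WAG2.

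The remaining groups follow in the same measure. Among auxin synthesis and transport, it was -2.48 for YUC5, -2.42 for YUC9, 1.23 for YUC3, 1.15 for PIN3 and 0.92 for PIN4. Among auxin targets, it was 2.04 for IAA17, 1.3 for IAA4, 1.53 for IAA19, 1.78 for SAUR17 and -1.37 for SAUR32. Among gibberellin genes, it was -2.05 for GA2OX7, 1.91 for GA2OX1, 1.11 for GA3OX1 and -0.62 for GID1C. Among brassinosteroid and helix-loop-helix genes, it was 1.02 for BIM1 and 1.18 for KDR. Among light signalling, it was 2.06 for PHOT1, 1.495 for NPH3, 1.15 for PHYA, 1.14 for HY5, 1.74 for PIF1, 1.47 for PIF3, 1.25 for PIF4 and 1.07 for PIF5. Among flavonoid, glucosinolate and glyoxylate genes, it was -3.04 for MYBL2, -2.70 for IMD1 and 2.52 for ICL. Among meristem, cuticle and light-harvesting genes, it was 1.29 for KNAT1, -1.19 for LAS, 1.08 for BDG1 and -0.98 for LHCB4.3. Among cell cycle genes, it was -2.28 for MAD2, -2.29 for CDKB2;1, -2.00 for CYCB1;4, -1.70 for CYCB1;3, -1.44 for CYCB2;2, -1.48 for CYCB1;1 and -0.87 for HTB2. Among the genes with the largest genotype differences, it was -5.72 for AT2G34700 and 3.75 for CLE5. No group had 4 or more libraries, so single libraries were not screened for distance from the rest here.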

How the results depend on the processing

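No named gene that was called as reported changed sign under an alternative, and 0 genes were called in opposite directions on the 2 scales. The balance of the calls did change with the scale. Falls outnumbered rises as deposited (7328 against 4002), whereas rises outnumbered falls with median-ratio scaling (5367 against 4881). Of the named genes, 6 that were not called (CRU1, OLEO2, IAA19, EIN3, KNAT1 and CYCB1;1) changed sign under at least 1 alternative, and the medians of 8 lists changed sign with median-ratio scaling. Median-ratio scaling moved the number of genes lower in hypocotyl to 4881, against 7328 on the deposited scale, since it centres the median change. Leaving out each library in turn gave 3564 to 4091 genes higher and 6240 to 7298 lower in hypocotyl. For the difference between pifq and WT it gave 1862 to 2849 genes higher and 1111 to 1588 lower. All other alternatives kept these 4 counts within 1.5 times their value. With the replicate number as a block, 3991 genes were higher and 7254 lower in hypocotyl, and 2588 and 1669 differed between the genotypes. The deviations of same-numbered hypocotyl and hook libraries correlated at 0.082, 0.238 and 0.193, in each case more than with other numbers, which is a hint from the data and not from the design. Of the named genes, 11 were no longer called with median-ratio scaling and 2 were newly called. Near 1 FPKM, depth limits what can be called, since 1 read in 1 kb is worth up to 0.0722 FPKM.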

Other observations

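Site II letters (TGGGCC, both strands) are known upstream of ribosomal protein and cell cycle genes. They lay in the 250 bases before the start of 120 of 2012 genes at least 2-fold higher in hypocotyl (5.96%). For nuclear genes at least 2-fold lower it was 302 of 2028 (14.9%), against 3014 of 17590 genes tested (17.1%). The median GC content of these windows was 29.2% in the higher set, 31.6% in the lower set and 31.2% over all. The part of base composition in these shares was not tested. PBE-box letters (CACATG), a variant recognised by PIF proteins, lay before 16 of 26 SAUR genes (61.5%), against 1952 of 17590 (11.1%), and many SAURs are tandem copies that share sequence. The evening element AAAATATCT lay before 5 of 21 clock genes (23.8%), against 429 of 17590 (2.44%).

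Ribosome biogenesis genes were lower for 3 of 10 and not called for 7, with 1 lower without WT hook replicate 2 and 0 lower with median-ratio scaling. Endoreduplication genes were lower for 2 of 6 on both scales. Embryo storage genes were lower for 1 of 6 on both scales, and for 3 without WT hypocotyl replicate 2. The embryo storage list summed to 9.66, 158 and 15.5 FPKM in WT hypocotyl and 120.4, 78.4 and 46.3 in WT hook. PAP85, a seed storage protein gene, reached 28.6 FPKM in WT hook replicate 1 and at most 1.33 in the other 5 libraries. Mitochondrion-encoded genes were lower for 8 of 35, or 5 with median-ratio scaling, and for 5 without WT hook replicate 1 or 2 or WT hypocotyl replicate 1. With the replicate block, 12 mitochondrion-encoded genes were lower and 4 higher. As deposited, no member of the ribosome biogenesis, endoreduplication, embryo storage or mitochondrion-encoded lists was higher, against a background of 22.5%. The share lower was below the background of 41.3% in each of them.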
